A study of Mus musculus with 2 samples.

Results

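Collagens are secreted or membrane proteins built from 3 chains that wind around each other in a triple helix, which requires glycine at a fixed spacing along each chain. Fibrillar chains form the tensile fibres of connective tissue, type IV chains form the sheet of basement membranes, and type VI chains form beaded filaments that sit between cells and fibres. In the ureter these proteins lie in the mesenchymal coat of smooth muscle and fibroblasts, in the layer under the urothelium and around nerves and vessels. Rbpj binds DNA and carries the signal of Notch receptors to the genes they switch on.

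The collagen genes were taken as the gene probes whose symbol in the array annotation is Col, a type number, the letter a and a chain number. That rule found 69 probes, 276 spots per array, for 44 genes, out of 39429 gene probes and 157716 gene spots. Of the 44 genes, 42 passed the filter on dim probes, among 21143 genes that passed it in all. Col10a1, a network-forming chain of growth cartilage, was not well above background in the Rbpj-cKO RNAs, and Col9a3, a fibril-associated chain, was not well above background in either genotype.

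The RNA came from ureters of mice of the NMRI strain at postnatal day 4 and was compared on 2 two-colour arrays, each with 1 Rbpj-cKO and 1 control RNA. The Rbpj-cKO ureters were Tbx18(cre/+);Rbpj(fx/fx), in which cre is expressed from the Tbx18 locus, a gene of the mesenchyme around the ureter, and cuts both floxed Rbpj alleles. The control ureters were Tbx18(+/+);Rbpj(fx/n.d.), in which one Rbpj allele is floxed and the state of the other was not determined, so that the genotypes differ in the Tbx18 allele as well. Array 1 held the pair labelled female, where red dye labelled the Rbpj-cKO RNA, and array 2 held the pair labelled male, with the dyes exchanged. How many animals gave each RNA, and whether RNA was pooled, is not given in the labels. The p-values here cover only these 2 pairs. They set the mean of the pairs against a spread that limma, the test used, draws toward the spread typical of all genes. The SD printed beside a p-value is that of the pairs alone.

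Both arrays were measured to similar quality, with 71.8% to 74.0% of gene spots well above background in each RNA. Rbpj stood at a log2 ratio of Rbpj-cKO over control of -0.92 on array 1 and -1.10 on array 2 (mean -1.01 ± 0.13, SD, n = 2 pairs, limma adjusted p = 0.0873), and its probe may lie outside the deleted part. The smooth muscle and urothelium markers of the ureter were present in all 4 RNAs. Some RNAs went against their labels or stood apart: in the pair labelled female, the Rbpj-cKO RNA exceeded the control RNA by 4.23 for Ddx3y and 4.26 for Eif2s3y on the log2 scale, both genes of the Y chromosome. The 8 liver markers had a median ratio of -2.68 on array 2 and 0.70 on array 1, and their summed log2 level was 15.94 in the male control RNA and at most 13.64 in the other RNAs. Collagen ratios are therefore given for each array, and the value without one array is that of the other.

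The promoters of 5 collagen genes are shown because these genes form the neighbouring groups with the highest ratios within their types, and because the targeted protein binds DNA. Col6a4, Col6a5 and Col6a6 lie one after the other on the minus strand of chromosome 9, with starts 136048 and 132558 bases apart. Col4a5 and Col4a6 lie head to head on chromosome X, with starts 1343 bases apart. The windows are the 250 bases before each gene's start, from RefSeq with build GRCm38.p6, printed 5′ to 3′ on the strand of the gene. They lie at chr9:106096692-106096941 (Col6a4, minus strand), chr9:105960644-105960893 (Col6a5, minus strand), chr9:105828086-105828335 (Col6a6, minus strand), chrX:141475169-141475418 (Col4a5, plus strand) and chrX:141474077-141474326 (Col4a6, minus strand). Capitals mark TGGGAA, the core of the sequence that Rbpj binds, or its reverse complement TTCCCA.
Col6a4: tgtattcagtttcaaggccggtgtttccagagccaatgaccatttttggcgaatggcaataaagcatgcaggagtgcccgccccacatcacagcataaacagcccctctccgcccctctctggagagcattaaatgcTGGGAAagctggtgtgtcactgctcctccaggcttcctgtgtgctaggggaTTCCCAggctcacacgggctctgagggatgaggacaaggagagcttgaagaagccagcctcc
Col6a5: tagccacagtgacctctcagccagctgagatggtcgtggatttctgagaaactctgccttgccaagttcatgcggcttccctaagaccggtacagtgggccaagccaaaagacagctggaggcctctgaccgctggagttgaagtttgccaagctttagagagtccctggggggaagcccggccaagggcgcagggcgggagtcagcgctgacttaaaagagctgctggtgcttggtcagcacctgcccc
Col6a6: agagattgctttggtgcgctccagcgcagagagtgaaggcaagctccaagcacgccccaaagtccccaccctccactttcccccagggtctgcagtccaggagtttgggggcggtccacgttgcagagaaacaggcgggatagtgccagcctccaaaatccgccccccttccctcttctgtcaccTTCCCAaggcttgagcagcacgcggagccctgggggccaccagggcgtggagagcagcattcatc
Col4a5: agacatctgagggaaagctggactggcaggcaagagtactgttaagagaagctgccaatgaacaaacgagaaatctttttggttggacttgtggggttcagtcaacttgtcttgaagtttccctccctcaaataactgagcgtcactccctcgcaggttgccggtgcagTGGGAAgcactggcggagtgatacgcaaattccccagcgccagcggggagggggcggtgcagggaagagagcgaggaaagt
Col4a6: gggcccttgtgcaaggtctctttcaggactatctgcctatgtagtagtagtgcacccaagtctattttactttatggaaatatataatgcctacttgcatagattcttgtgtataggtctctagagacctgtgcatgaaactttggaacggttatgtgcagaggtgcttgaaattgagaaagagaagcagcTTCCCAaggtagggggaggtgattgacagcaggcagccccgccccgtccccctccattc
The Col6a4 window holds this hexamer 113 and 62 bases before the start, the Col6a6 window 65, the Col4a5 window 81 and the Col4a6 window 59 bases before it. The letters are not in the Col6a5 window, whose gene had the highest ratio of the family. On both strands, TGGGAA was found in 21.6% of the 32851 promoter windows of this length in the RefSeq table and in 12 of the 38 windows that matched 35 collagen genes (31.6%). A match describes letters in a window and is not a measured binding site.

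Across the family, Col6a5, Col6a4, Col12a1, Col6a6 and Col23a1 stood highest in the Rbpj-cKO ureters and Col2a1, Col17a1 and Col22a1 lowest. The abundant chains of collagen fibres and of the common type IV and type VI filaments lay closer to 0. None of the 42 genes passed an adjusted p of 0.05 in limma's test over all genes, which called 0% of all genes higher and 0.00473% lower, the latter being Ucp1 of the fat cell markers alone. With limma's trend and robust settings 2 passed, Col12a1 and Col6a4, each at an adjusted p of 0.0463, among 95 genes in all. At an unadjusted p of 0.05, 12 collagen genes were higher and 3 lower, against 6.98% and 7.02% of all genes. On both arrays 20 collagen genes were higher and 9 lower, against 31.7% and 29.8% of all genes, and 13 had opposite signs. These shares of all genes also apply to the like counts of each class and list below. At least 1.5-fold higher on both arrays were 3 collagen genes, Col6a5, Col6a4 and Col12a1, against 0.402% of all genes. None was at least 1.5-fold lower on both, against 0.795% of all genes. The median log2 ratio of the collagen genes was 0.09, with 0.04 on array 1 and 0.14 on array 2, beside a median of -0.00 over all genes.

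**Figure D1:**
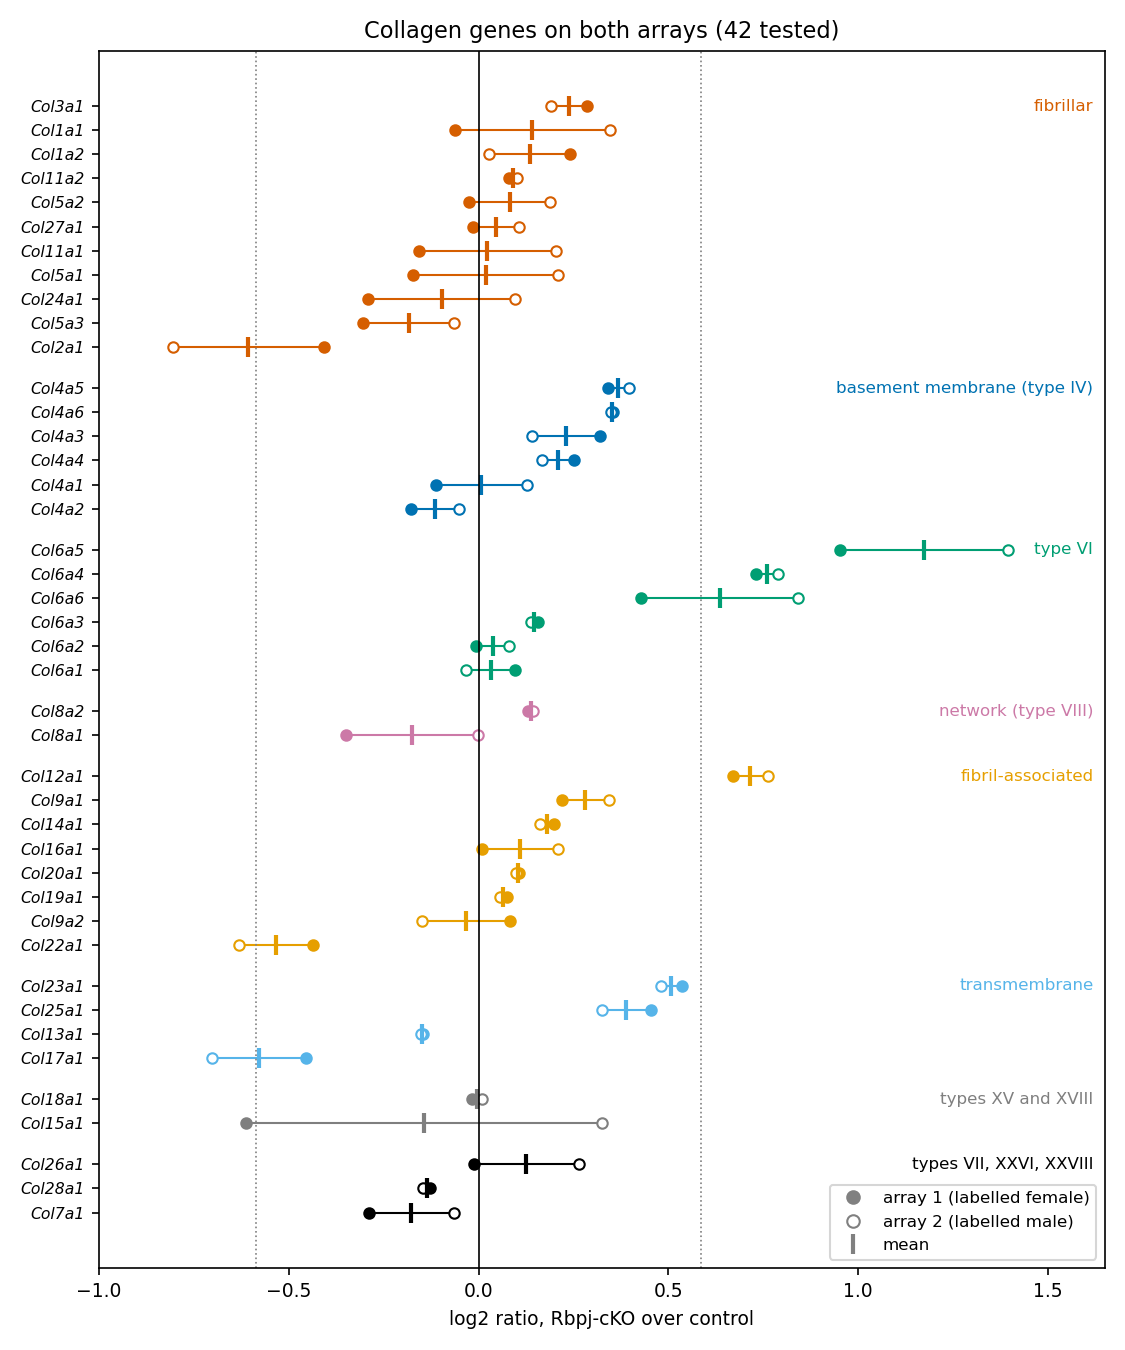
Log2 ratio of Rbpj-cKO over control (horizontal axis) for each of the 42 collagen genes tested, grouped by class, with array 1 as filled circles, array 2 as open circles and the mean as a vertical tick; dotted lines mark 1.5-fold. Col6a5, Col6a4 and Col12a1 lie beyond 1.5-fold on both arrays, and the fibrillar genes other than Col2a1 lie between -0.30 and 0.35 on either array.

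Among the type VI genes, the chains lay in separate sets on both arrays. Col6a1, Col6a2 and Col6a3, which encode the classical chains of the beaded filament, averaged 0.08 on array 1 and 0.06 on array 2. Col6a4, Col6a5 and Col6a6, which encode chains related to that of Col6a3, averaged 0.70 and 1.01. The second set exceeded the first by 0.62 on array 1 and 0.95 on array 2, a description of 2 pairs, since the genes of a set were chosen with the values known and lie side by side in the genome. Beside them, 4 of 6 mesothelium markers were higher on both arrays, with medians of 0.65 and 0.12. Their summed log2 levels were 16.91 and 16.84 in the Rbpj-cKO and 16.73 and 16.88 in the control RNAs. Krt19, the brightest marker, makes up most of that sum, and Upk3b is also a urothelium marker. Krt19 and Msln had opposite signs on the arrays, while Gpm6a had 1.29 and 0.74 and Lrrn4 0.99 and 0.79. Of 7 pericyte markers, 6 were lower on both, with medians of -0.43 and -0.39 and summed levels of 16.49 and 16.39 against 16.78 and 16.72. Kidney epithelium markers had medians of 1.03 and 0.26. The part of these markers in the type VI ratios was not tested.

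Col6a5 had normalized log2 levels of 9.72 in the Rbpj-cKO and 8.77 in the control RNA of array 1, and of 10.19 and 8.79 on array 2. The control RNAs were nearly alike and both Rbpj-cKO RNAs lay above them. Its log2 ratios of 0.95 and 1.39 gave a mean of 1.17 ± 0.31 (SD, n = 2 pairs, limma adjusted p = 0.114, 95% interval 0.83 to 1.52), the rank of 17 from the top among all 21143 genes. The probe lies at chr9:105765145-105766504 of mm9 on the minus strand, a span longer than its 60 bases.

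Col6a4 had levels of 8.78 in the Rbpj-cKO and 8.05 in the control RNA of array 1, and of 8.86 and 8.07 on array 2. The genotypes did not overlap, and the pairs were closely alike. The mean ratio was 0.76 ± 0.04 (SD, n = 2 pairs, limma adjusted p = 0.101), measured at chr9:105893016-105893075 of mm9, minus strand. The second probes of Col6a4 and Col6a5 were not well above background in either genotype, so each of these genes rests on 1 probe.

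Col6a6 had levels of 11.04 in the Rbpj-cKO and 10.61 in the control RNA of array 1, and of 11.07 and 10.23 on array 2. The Rbpj-cKO RNAs were alike and the control RNAs differed from each other. The ratios were 0.43 and 0.84 (mean 0.64 ± 0.29, SD, n = 2 pairs, limma adjusted p = 0.197) at chr9:105591795-105591854 of mm9, minus strand. A dimmer second probe gave 0.31 and 0.34, below the first on both arrays, and the mean over the probes was 0.48.

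The classical type VI chains lay close to 0. Col6a3, the long chain of the filament, had 0.16 on array 1 and 0.14 on array 2. Col6a1 had 0.10 and -0.03 and Col6a2 -0.01 and 0.08, with opposite signs on the arrays. The 95% intervals of these 3 genes lay within 1.5-fold in either direction, the widest bounds being -0.18 and 0.34. In bulk RNA, fewer cells of a type and less RNA per cell cannot be told apart for any of these genes.

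**Figure D2:**
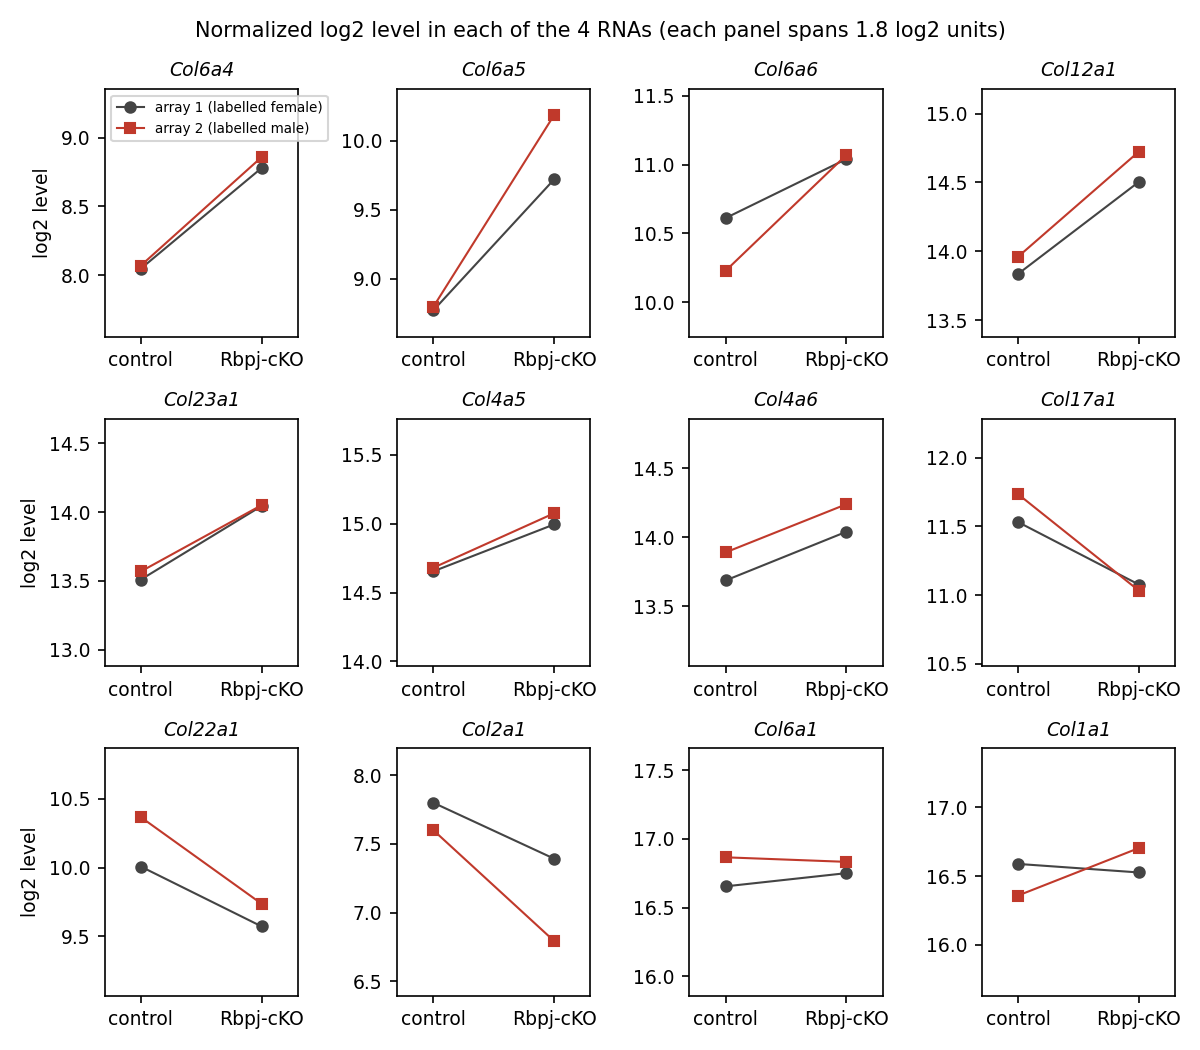
Normalized log2 level (vertical axis, 1.8 log2 units in each panel) of 12 collagen genes in the control and Rbpj-cKO RNA of array 1 (circles) and array 2 (squares), with a line joining the RNAs of 1 array. Levels of both Rbpj-cKO RNAs lie above both control RNAs for the first 7 genes and below them for Col17a1, Col22a1 and Col2a1, while Col6a1 and Col1a1 overlap.

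Fibril-associated collagens sit on the surface of collagen fibres, and Col12a1 stood highest among them. Col12a1 encodes a chain found in tissue under tension, such as tendon and the sheath of muscles. Its levels were 14.50 in the Rbpj-cKO and 13.84 in the control RNA of array 1, and 14.72 and 13.96 on array 2. Both Rbpj-cKO RNAs lay above both control RNAs. The mean ratio was 0.72 ± 0.07 (SD, n = 2 pairs, limma adjusted p = 0.106) at chr9:79446895-79446954 of mm9, minus strand, and a second, dim probe gave 0.51 and 0.50.

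Of the 8 fibril-associated genes tested, 6 were higher on both arrays, 1 was lower on both and 1 had opposite signs, with a median of 0.11. Of all genes, 31.7% were higher and 29.8% lower on both arrays. Col9a1, best known from cartilage, had 0.22 and 0.34 (mean 0.28 ± 0.09, SD, n = 2 pairs, limma adjusted p = 0.278). Col14a1, a partner of fibres in many soft tissues, had 0.20 and 0.16. Col16a1 had 0.01 and 0.21, Col19a1 0.07 and 0.06 and Col20a1 0.11 and 0.10, whereas Col9a2 had 0.08 and -0.15.

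Col22a1, a collagen of the junction between muscle and tendon, was the one fibril-associated gene lower on both arrays. Its levels were 9.57 in the Rbpj-cKO and 10.01 in the control RNA of array 1, and 9.74 and 10.37 on array 2. Both Rbpj-cKO RNAs lay below both control RNAs. The mean ratio was -0.53 ± 0.14 (SD, n = 2 pairs, limma adjusted p = 0.166) at chr15:71628906-71628965 of mm9, minus strand. Beside it, 4 of 6 skeletal muscle markers tested were lower and 2 higher on both arrays, with medians of -0.23 and -0.24 and a summed log2 level of 15.49 and 15.63 in the Rbpj-cKO and 15.80 and 15.81 in the control RNAs. Their part in the value of Col22a1 was not tested.

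The fibrillar chains, which make up most of the collagen of connective tissue, had a median ratio of 0.05. Of 11 genes, 3 were higher on both arrays, 2 lower on both and 6 had opposite signs. Col3a1, the chain of the fine fibres of distensible organs, had levels of 17.18 in the Rbpj-cKO and 16.90 in the control RNA of array 1, and of 17.17 and 16.98 on array 2. Both Rbpj-cKO RNAs lay above both control RNAs, by 0.29 and 0.19 (mean 0.24 ± 0.07, SD, n = 2 pairs, limma adjusted p = 0.313).

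The type I chains, the main chains of thick fibres, differed in how the pairs compared. Col1a1 had -0.06 on array 1 and 0.35 on array 2 (mean 0.14 ± 0.29, SD, n = 2 pairs, limma adjusted p = 0.69), and its levels overlapped between genotypes. Col1a2 had 0.24 and 0.03, both on the higher side (mean 0.13 ± 0.15). The 95% interval of the mean ran from -0.19 to 0.47 for Col1a1 and from -0.10 to 0.37 for Col1a2, within 1.5-fold in both cases. The brightest type I and type III spots were not saturated.

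The type V and type XI chains, which start and limit the width of fibres, lay on either side of 0. Col5a1 had -0.17 and 0.21, Col5a2 -0.02 and 0.19 and Col11a1 -0.16 and 0.20, each with opposite signs. Col5a3 was lower on both arrays, with -0.30 and -0.06, and Col11a2 higher on both, with 0.08 and 0.10. Col24a1 and Col27a1, the chains of minor fibrils, had opposite signs on the arrays, with -0.29 and 0.10 for Col24a1 and -0.02 and 0.11 for Col27a1.

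Col2a1, the main chain of cartilage, was dim and the lowest of the family. Its levels were 7.39 in the Rbpj-cKO and 7.80 in the control RNA of array 1, and 6.79 and 7.60 on array 2. The genotypes did not overlap, but the Rbpj-cKO RNAs differed from each other. The ratios were -0.41 and -0.81 (mean -0.61 ± 0.28, SD, n = 2 pairs, limma adjusted p = 0.201) at chr15:97806071-97806130 of mm9, minus strand. With the scanner's own log ratio in place of the background model the mean was -1.17. Beside it, 3 of 7 cartilage markers passed the filter, with 2 higher and 1 lower on both arrays, while Acan, Matn1, Matn3 and Cnmd did not. The list's summed level was 11.70 to 11.73 in all 4 RNAs, and Sox9, at 11.07 to 11.18, makes up most of it. The part of these markers in the value of Col2a1 was not tested.

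The type IV genes are arranged in the genome as pairs that share a start region, and the averages of the pairs were unlike. Col4a1 and Col4a2, the chains of nearly every basement membrane, averaged -0.14 on array 1 and 0.04 on array 2. Col4a3 and Col4a4, which with the chain of Col4a5 form the network of the kidney filter and some other epithelia, averaged 0.29 and 0.15. Col4a5 and Col4a6, whose chains form a network found around smooth muscle and under some epithelia, averaged 0.35 and 0.37, which exceeds Col4a1 and Col4a2 by 0.49 and 0.34. That contrast sets the highest of these averages against the lowest, was chosen with the values known, and was not tested.

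Col4a5 had levels of 14.995 in the Rbpj-cKO and 14.65 in the control RNA of array 1, and of 15.08 and 14.68 on array 2. Both Rbpj-cKO RNAs lay above both control RNAs by similar amounts. The mean was 0.37 ± 0.04 (SD, n = 2 pairs, limma adjusted p = 0.202) at chrX:138123547-138123606 of mm9, plus strand. Col4a6 had levels of 14.04 and 13.69 on array 1 and of 14.24 and 13.89 on array 2, in the same order. Its ratio was 0.35 on either array (limma adjusted p = 0.208) at chrX:137599990-137600049 of mm9, minus strand. A second probe of Col4a6 gave 0.23 and 0.09.

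Col4a3 had 0.32 and 0.14 and Col4a4 0.25 and 0.17. Both were higher on both arrays, with levels that did not overlap between genotypes. A second, dim probe of Col4a4 gave 0.09 and -0.03. Col4a1 had -0.11 and 0.13 and Col4a2 -0.18 and -0.05. The 95% intervals of all 6 type IV genes lay within 1.5-fold in either direction, as did those of 90% of all genes. The intervals are not adjusted over all genes. Those of Col4a5 (0.17 to 0.57), Col4a6 (0.16 to 0.55), Col4a3 (0.005 to 0.46) and Col4a4 (0.008 to 0.41) lay above 0, while those of Col4a1 and Col4a2 included it.

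Markers of kidney and urothelium stood beside the type IV values. Of 7 kidney epithelium markers tested, 6 were higher on both arrays, with medians of 1.03 on array 1 and 0.26 on array 2 and a summed log2 level of 11.77 and 11.46 in the Rbpj-cKO and 11.06 and 10.96 in the control RNAs. Of 5 podocyte markers, 3 were higher on both, with summed levels of 12.91 and 12.83 against 12.86 and 12.74. Of 9 urothelium markers, 6 were higher on both, with medians of 0.41 and 0.08 and summed levels of 19.43 and 19.33 against 19.01 and 19.30. Of 9 smooth muscle markers, 7 were lower on both, with medians of -0.24 and -0.36 and summed levels of 19.45 and 19.30 against 19.48 and 19.68. Their part in the type IV ratios was not tested.

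The transmembrane collagens are anchored in the cell membrane, and of the 4 genes tested, 2 were higher and 2 lower on both arrays. Col23a1, a chain of epithelial cells and other cell surfaces, had levels of 14.05 in the Rbpj-cKO and 13.51 in the control RNA of array 1, and of 14.05 and 13.57 on array 2. Both Rbpj-cKO RNAs lay above both control RNAs. The mean was 0.51 ± 0.04 (SD, n = 2 pairs, limma adjusted p = 0.146) at chr11:51396885-51396944 of mm9, plus strand, and its other probes had means of 0.44 and 0.38.

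Col25a1, a chain needed in muscle for its innervation, had 0.45 on array 1 and 0.33 on array 2 at its brightest probe, with levels of 8.54 and 8.09 on array 1 and of 8.24 and 7.91 on array 2. The genotypes did not overlap, and the mean was 0.39 ± 0.09 (SD, n = 2 pairs, limma adjusted p = 0.203). Among its 4 probes, 1 had opposite signs on the arrays, with -0.20 on array 1 and 0.55 on array 2. In the control RNA of array 2 only 1 of the 4 spots of that probe was well above background, so its 0.55 is loosely measured. The means of the 4 probes were not alike, at 0.39, 0.49, 0.17 and 0.10, with 0.17 for the probe of opposite signs. The lowest came from the probe below, at chr3:130270497-130270556 of mm9 on the plus strand, which is shown because its sequence carries the glycine repeat of the triple helix (capitals mark glycine codons, each followed by a pair of other codons).
Col25a1: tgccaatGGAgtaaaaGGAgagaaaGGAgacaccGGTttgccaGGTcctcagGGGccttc
That probe had 0.15 on array 1 and 0.05 on array 2. Runs of 6 or more glycine codons at this spacing were found in 2 of the 69 collagen probes and in 8 of all 39429.

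Col17a1, a hemidesmosome protein that fixes basal epithelial cells to the basement membrane, was the transmembrane gene with the lowest ratio. Its levels were 11.08 in the Rbpj-cKO and 11.53 in the control RNA of array 1, and 11.03 and 11.73 on array 2. Both Rbpj-cKO RNAs lay below both control RNAs. The mean ratio was -0.58 ± 0.18 (SD, n = 2 pairs, limma adjusted p = 0.166) at chr19:47720894-47720953 of mm9, minus strand. Beside it, 6 of 9 urothelium markers were higher on both arrays and 3 had opposite signs, with medians of 0.41 and 0.08. Among them, Trp63 had 0.38 and 0.31 and Krt5 -0.10 and 0.08. The part of these markers in the value of Col17a1 was not tested. Col13a1, a chain of muscle and nerve contacts, was dim, with 1 of 4 spots well above background in the Rbpj-cKO RNA of array 1, and passed the filter through the control RNAs. Its ratio of -0.15 on either array is therefore loosely measured, also where it counts among the genes lower on both arrays, and the authors' deposited table gave 0.00.

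**Figure D3:**
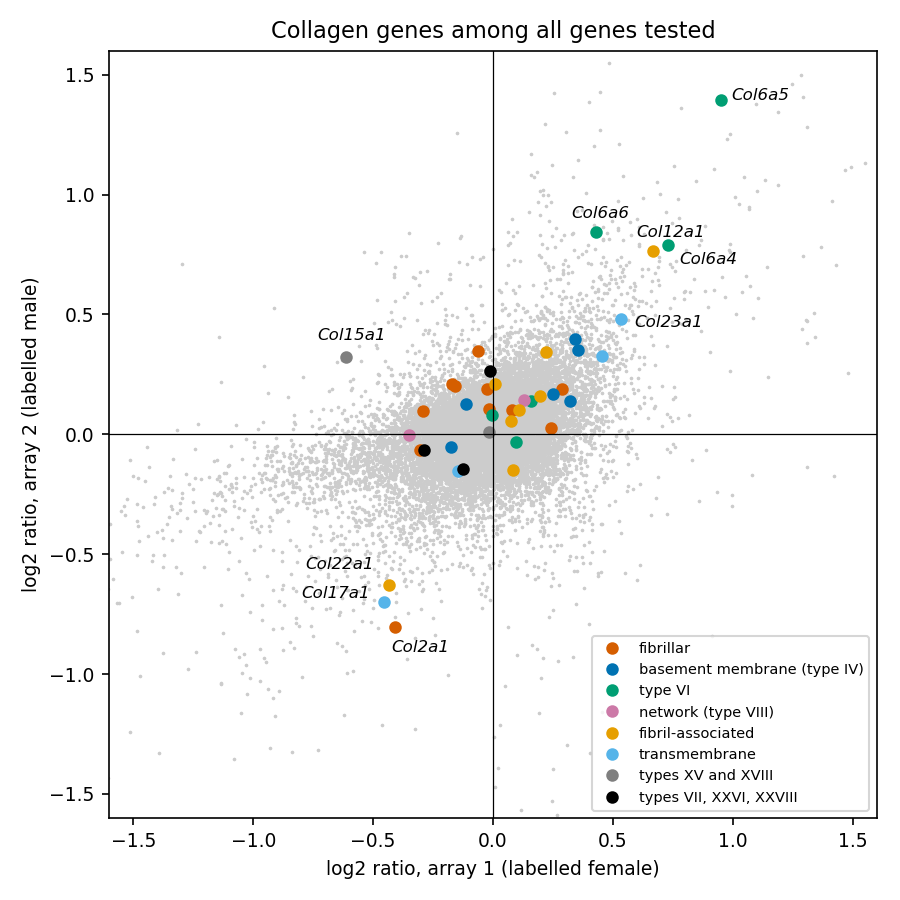
Log2 ratio of Rbpj-cKO over control on array 1 (horizontal axis) against array 2 (vertical axis) for all genes tested (grey) and the 42 collagen genes (coloured by class); genes with ratios beyond the axes are not drawn. Col6a5, Col6a4, Col12a1, Col6a6 and Col23a1 lie at the upper right, Col2a1, Col17a1 and Col22a1 at the lower left, and Col15a1 at -0.61 and 0.32.

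The remaining genes were nearer 0 or differed between pairs. Col15a1, a basement membrane collagen of vessels, muscle, fat and nerves, had levels of 8.51 in the Rbpj-cKO and 9.13 in the control RNA of array 1, but of 9.14 and 8.82 on array 2. Its ratios of -0.61 and 0.32 were of opposite sign, and a second probe that overlaps the first gave -0.64 and 0.14. Col18a1, the source of endostatin, had -0.02 and 0.01. Beside Col15a1, 11 of 11 fat cell markers were lower on both arrays, with medians of -2.80 and -1.50, and 6 of 8 endothelium markers, with medians of -0.34 and -0.13. The summed log2 level of the fat cell markers was 16.70 and 16.83 in the Rbpj-cKO and 19.57 and 18.02 in the control RNAs, and that of the endothelium markers 16.46 and 16.43 against 16.91 and 16.57. Their part in the value of Col15a1 was not tested.

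The network-forming chains of type VIII, found around vessels, lay near 0 on at least 1 array or probe. Col8a1 had -0.35 and -0.00. Col8a2 had 0.13 and 0.14 at its brightest probe and 0.08 and -0.16 at a second one. Col10a1 was well above background in 1 of the 4 RNAs, the control of array 1, with a log2 level of 7.18 beside 6.54 in the Rbpj-cKO RNA of that array, and no fold is given for it. Col7a1, the anchoring fibril of skin-like epithelia, had -0.29 and -0.06, Col28a1 -0.13 and -0.15, and Col26a1 -0.01 and 0.26.

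Over the whole family, the 95% interval of the mean ratio lay within 1.5-fold in either direction for 32 of 42 genes, against 90% of all genes. The 10 others were the 5 highest, Col25a1, Col15a1 and the 3 lowest. The levels of both Rbpj-cKO RNAs lay above those of both control RNAs for 15 genes and below them for 9, against 22.3% and 20.8% of all genes. The 9 include Col13a1, which is dim and passed the filter only through the control RNAs, so its place among them is loosely measured. Of the 15 genes, 4 were type VI, 4 type IV, 3 fibril-associated, 2 fibrillar and 2 transmembrane. Of the 18 genes with more than 1 probe, those with several probes past the filter had means within 0.39 of each other on the log2 scale, the widest being Col25a1.

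Genes that fold, trim, cross-link and break down collagen were measured on the same arrays, and limma called none of them over all genes. The lists were chosen with earlier results of these data known. Of all genes, 31.7% were higher and 29.8% lower on both arrays, the shares to set beside the counts of these lists. For the enzymes and chaperones that act inside the cell, 7 of 21 were higher and 6 lower on both arrays, close to those shares, with a median of 0.04. P4ha1, a catalytic subunit of prolyl 4-hydroxylase, had 0.07 ± 0.12 (SD, n = 2 pairs), and Serpinh1, the collagen chaperone, -0.08 ± 0.27, both with opposite signs on the arrays. Sparc, a collagen-binding protein, had 0.04 ± 0.05. Plod2, which hydroxylates lysines of the chain ends, had -0.49 and -0.26, P4ha3, another prolyl 4-hydroxylase subunit, 0.22 and 0.26, and P3h2, a prolyl 3-hydroxylase, -0.20 and -0.24.

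Outside the cell, 4 of 7 genes of propeptide removal were higher and 2 lower on both arrays. Pcolce2, which enhances the cutting of the C-terminal propeptide, had 0.54 and 0.64 (mean 0.59 ± 0.07, SD, n = 2 pairs, limma adjusted p = 0.133). Adamts3 and Adamts2, the proteases of the N-terminal propeptide, had means of 0.30 and 0.24. Of 6 cross-linking enzymes, 2 were higher and 2 lower on both. Lox, a lysyl oxidase, had 0.38 and 0.51 (mean 0.45 ± 0.09, SD, n = 2 pairs, limma adjusted p = 0.18), Loxl4, a related enzyme, 0.32 and 0.57, and Tgm2, a transglutaminase, -0.33 and -0.14.

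Proteins that sit on fibres were higher on both arrays for 7 of 13 genes and lower for 3. Lum and Fmod, small proteoglycans that bind to fibres at the same place, had means of 0.44 and 0.33, whereas Aspn, a relative of decorin, had -0.34. Of 9 collagen receptor genes, 2 were higher and 4 lower on both. Itga1, Itga2 and Itga10, integrin chains that bind collagen, had means of -0.25, -0.20 and -0.20. For breakdown, 3 of 9 genes were higher and 3 lower on both. Proteases and protease inhibitors were among the higher and among the lower genes, so these counts give no single direction of breakdown. Mmp9, a gelatinase, had -0.61 and -0.51 and Fap, a fibroblast protease, -0.47 and -0.41. Timp3, a protease inhibitor bound to the matrix, had -0.29 and -0.37.

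Partners of type IV collagen in basement membranes were higher on both arrays for 6 of 12 genes and lower for 3. Smoc2, a calcium-binding matrix protein, had 0.41 and 0.61 (mean 0.51 ± 0.14, SD, n = 2 pairs, limma adjusted p = 0.17). Lama2, the laminin chain of muscle and nerve, had 0.26 and 0.42, and Hspg2, perlecan, -0.52 and -0.15. Of 9 fibroblast markers in the same RNAs, 5 were higher and 2 lower on both arrays, with medians of 0.07 and 0.01 and summed log2 levels of 18.76 and 18.68 in the Rbpj-cKO and 18.42 and 18.55 in the control RNAs.

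**Figure D4:**
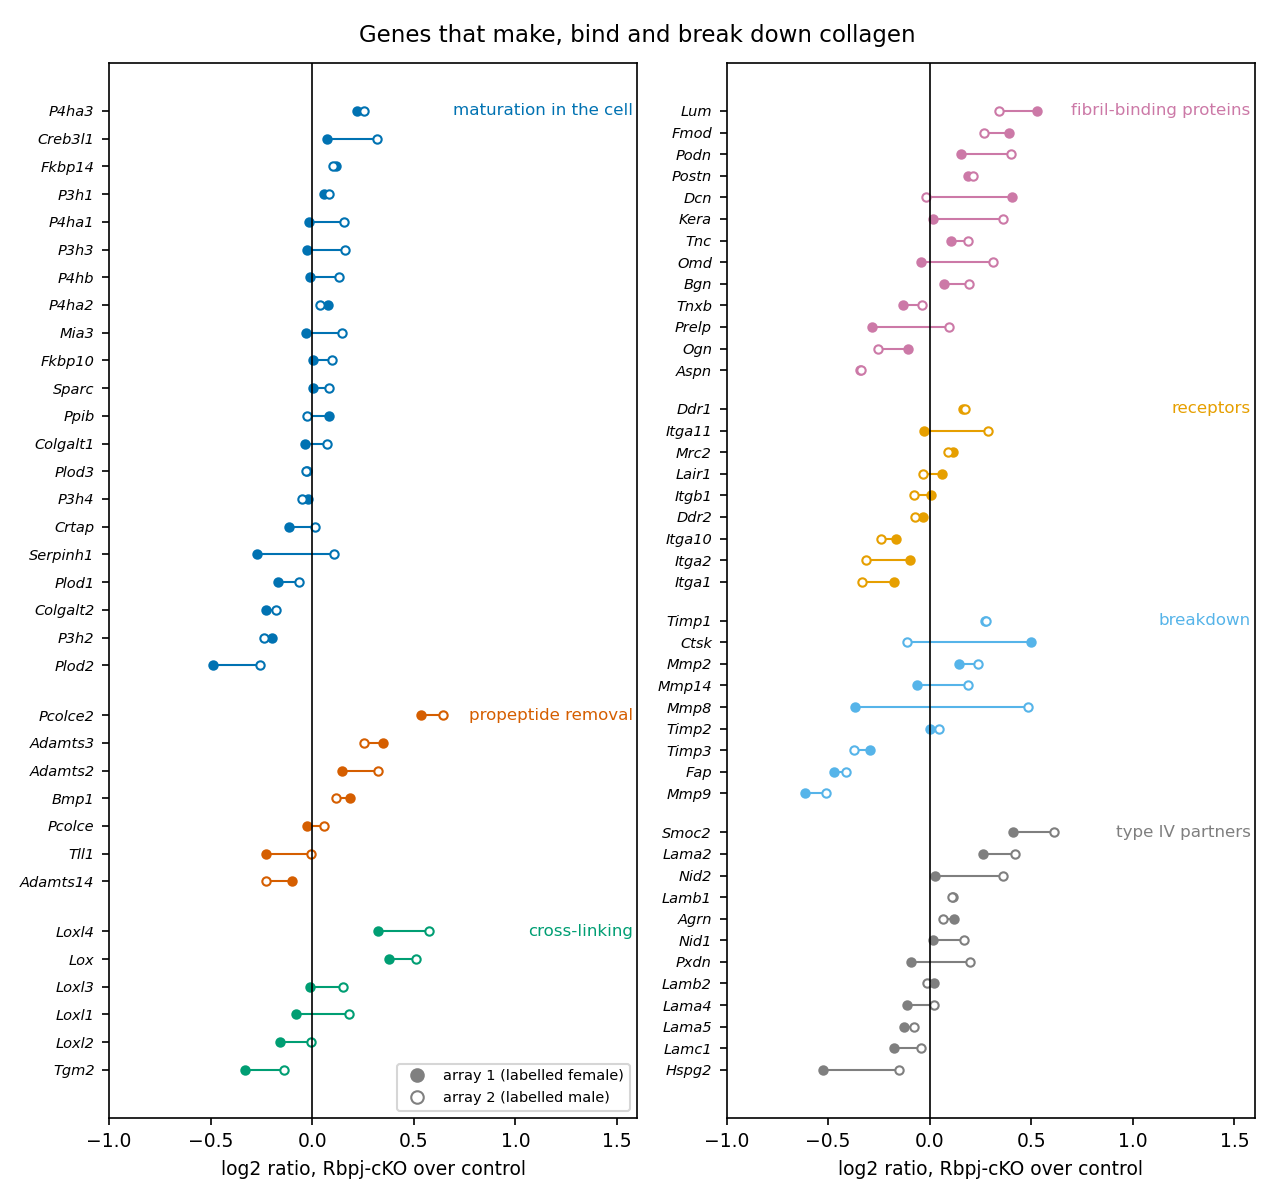
Log2 ratio of Rbpj-cKO over control (horizontal axis) for the genes of 7 lists that mature, trim, cross-link, bind, sense or break down collagen or sit beside it in basement membranes, with array 1 as filled and array 2 as open circles. Each list has genes on either side of 0, and Pcolce2 at 0.54 and 0.64 and Mmp9 at -0.61 and -0.51 lie farthest out on both arrays.

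**Figure D5:**
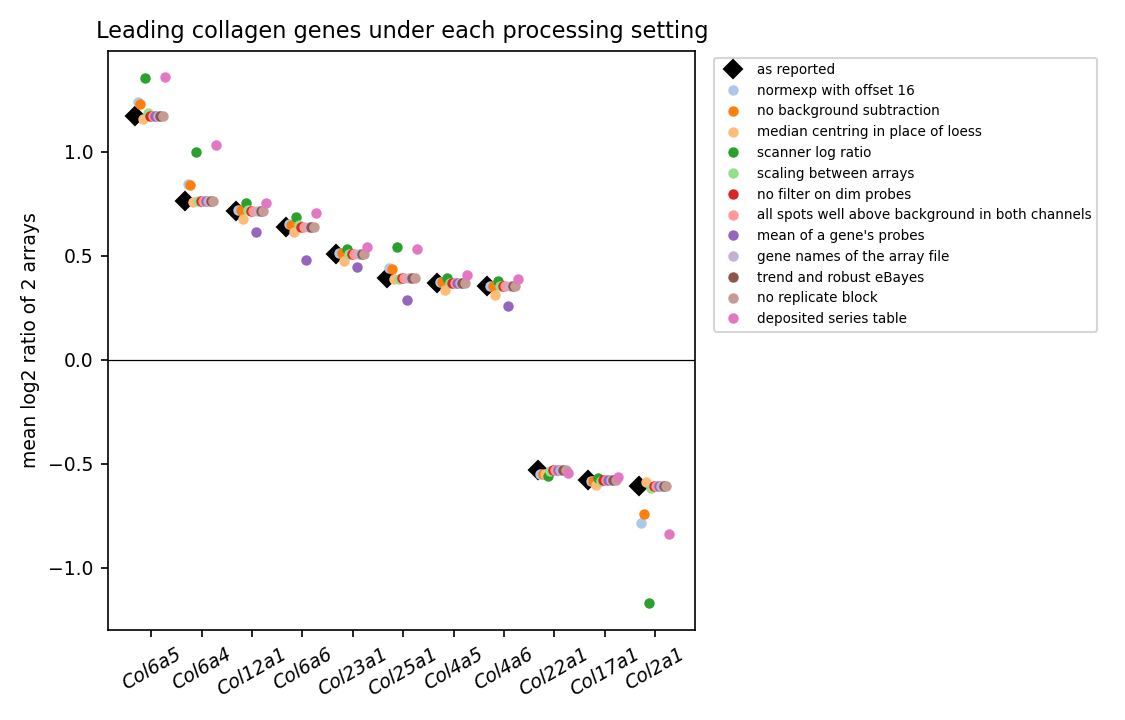
Mean log2 ratio of the 2 arrays (vertical axis) for 11 collagen genes as reported (diamonds) and under each of 12 other processing settings (coloured circles). The genes keep their sign, and the dim genes spread most, with Col2a1 from -0.61 as reported to -1.17 with the scanner log ratio.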

How the data were processed

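The scanner files were made by the authors with Agilent Feature Extraction 10.7.3.1, per the submitters' processing notes, on a custom array with probe coordinates in mm9 per the file headers. They hold spot intensities as deposited, and a log10 ratio of red over green after the scanner software's background and dye correction, per the file headers. The deposited series table, a score that by its values is a signed fold change with centring and floor unknown and medians of 1 and 1, served as an alternative (correlation 0.951 and 0.923 with the ratios used here).

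Mean signals were corrected by normexp (offset 50) against the local background median and each array was loess-normalized with weight 0 for control spots (limma 3.58.1, R 4.3.3). Spots marked as outliers (3.34% and 3.12%) were dropped; 0 gene spots were saturated. Each ratio was given as Rbpj-cKO over control by the dye labels, and the 4 spots of a probe, with a median SD of 0.05 and 0.06, were averaged. A probe was kept if, in at least 1 genotype, over 50% of the spots on each array exceeded background by the scanner flag (28176 probes). The brightest probe stood for a gene. RefSeq accessions gave current names to 28328 probes, 64 of the 69 collagen probes among them. A limma fit over all genes (1 residual and 4.35 total degrees of freedom) gave two-sided p-values with Benjamini-Hochberg adjustment at 0.05. Levels are log2 intensities after quantile scaling of the average between arrays, set once for each probe and not comparable between genes. A summed level is the log2 of a list's added linear levels. The number of arrays limits the precision.

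Both RNAs of an array share its number; same-numbered deviations had a correlation of 0.219 across genes, and the ratio keeps them paired. Any collagen gene may be named; of each pathway list, the up to 3 genes with the largest mean of one sign on both arrays and Lox, P4ha1, Serpinh1 and Sparc were named. The members and lists were chosen with earlier results of these data known. Alternatives were another offset, no background subtraction, median centring, the scanner ratio, scaling between arrays, other filters, probe means, array gene names, trend and robust settings, no pairing, the series table and each array left out. The exon or UTR of each probe was not determined here.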

Additional observations from a re-analysis of the deposited data

Results flagged for a closer look

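For 13 of the 42 collagen genes the pair labelled female (array 1) and the pair labelled male (array 2) had opposite signs, as 8139 of all 21143 genes did. With 1 pair under each label this difference was not tested. The dyes were exchanged between the arrays, and the Rbpj-cKO RNA labelled female carried Y-linked transcripts, so the values are those of 2 arrays and not of the sexes. None of the 13 was at least 1.5-fold in both directions. The ratio of array 2 minus that of array 1 was 0.94 for Col15a1, 0.41 for Col1a1, 0.39 for Col24a1, 0.38 for Col5a1, 0.36 for Col11a1, 0.28 for Col26a1, 0.24 for Col4a1, 0.21 for Col5a2, 0.12 for Col27a1, 0.085 for Col6a2 and 0.025 for Col18a1. It was negative for Col9a2 (-0.23) and Col6a1 (-0.13). The fibrillar genes of this set, Col1a1, Col24a1, Col5a1, Col11a1, Col5a2 and Col27a1, were all lower in the Rbpj-cKO RNA of array 1 and higher in that of array 2.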

How the results depend on the processing

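The 12 other settings moved few collagen results. With trend and robust settings 2 genes passed the adjusted threshold, Col12a1 and Col6a4 (limma adjusted p = 0.0463 for each), and 95 genes in all. With the scanner log ratio 1 gene was at least 1.5-fold lower on both arrays, Col2a1. The fit without the replicate block, which drops the pairing of the RNAs on an array, called 0 collagen genes and left 11 in place of 12 higher at an unadjusted p of 0.05. With 1 array left there is no test. Leaving out each array in turn, 3 to 4 genes were at least 1.5-fold higher, 1 to 3 at least 1.5-fold lower, 22 to 31 higher and 11 to 20 lower, with a median of 0.04 to 0.14. Of all genes, 202 to 258 were then at least 1.5-fold higher, 292 to 783 at least 1.5-fold lower, 10125 to 11436 higher and 9707 to 11018 lower. The 31 come from array 2 and the 22 from array 1. The 3 lower genes on array 2 alone were Col2a1, Col17a1 and Col22a1, and the 1 on array 1 alone was Col15a1. Of 503 values of single genes under the 12 settings, 5 changed sign, of genes whose mean was within 0.019 of 0. Of 84 values with 1 array left out, 13 changed sign, those of the 13 genes with opposite signs on the arrays. The 5 under the 12 settings were Col4a1 (-0.019) and Col5a1 (-0.016) with median centring and Col18a1 with the scanner log ratio (0.031), with the mean of its probes (0.024) and with the series table (0.045). Median centring gave 15 collagen genes higher and 7 lower on both arrays, beside 5124 and 6751 of all genes. It left 8 collagen genes higher at an unadjusted p of 0.05, beside 761 of all genes.

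The limits are those of 2 pairs that differ in sex label and dye and of marker genes of other tissues that stood at unlike levels in the RNAs. The genes that moved most between settings were Col2a1 (-1.17 to -0.59), Col13a1 (-0.47 to 0.00), Col6a4 (0.76 to 1.03) and Col25a1 (0.29 to 0.54), all dim.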
